A study of Mus musculus with 48 samples.

Results

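The genes described here are 44 mouse genes of ribosome biogenesis, chosen by symbol for their known work in the nucleolus, and followed through an experiment in BCR/ABL-expressing cells. For each gene the probe set of highest mean signal was taken among those that the platform annotation gives to that symbol alone. Such a probe set was found for 43 of the 44, out of 18193 genes with one on the array, and all 43 were among the 12800 genes tested after a filter on low signals. Mrto4 was not used because its probe set carries several symbols.

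RNA came from 32D cells, a mouse myeloid progenitor line, made to express BCR/ABL, the fused tyrosine kinase of chronic myeloid leukemia. All of the cells also carried the MigRI retroviral vector. In 3 of the 4 lines the vector encoded C/EBPα, a transcription factor of granulocyte development, joined to the ligand-binding part of the estrogen receptor (ER), which 4-hydroxytamoxifen (4-HT) activates. Samples at 0, 6, 9 and 12 h after 4-HT were hybridised to 3 Affymetrix arrays a group, 48 arrays in all. The lines are called WT (wild-type C/EBPα-ER), K298E (a mutant described in the labels as deficient in DNA binding), Δ(177-191) (a mutant described there as deficient in binding CDK2 and CDK4) and vector (MigRI empty vector, 4-HT but no fusion). The labels describe 1 line per construct, and neither a culture kept without 4-HT for the same hours nor which arrays came from one experiment, so p-values measure the spread between these arrays, which may be technical. The medium held fetal bovine serum, glutamine and antibiotics.

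A ribosome is built in the nucleolus, where RNA polymerase I transcribes a long precursor RNA from the ribosomal DNA. Small nucleolar ribonucleoproteins (snoRNPs) guide chemical modification of this RNA, box C/D particles its methylation and box H/ACA particles its conversion of uridine to pseudouridine, while large assemblies fold and cut it into the RNAs of the small (40S) and large (60S) subunits. Many of these genes are textbook targets of Myc, which binds E-boxes with the core letters CACGTG, and growing myeloid and leukemic cells express them at high levels. The roles named below were worked out in yeast and in mammalian cells.

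On every array the mean signal without the extremes lay between 100.0 and 100.02, and the median signal lay between 11 and 19. The general and myeloid genes Ptprc, Spi1, Myb, Il3ra, Csf2rb and Csf2rb2 exceeded a signal of 14, the median of all values, in 16 of the 16 groups. Mpo did so in 13 groups, Kit in 2 and Cd34 in 0, so the progenitor markers Kit and Cd34 were near or below that level in most groups. On single arrays the summed signal of 7 fibroblast and stromal markers was 33 to 123 and that of 5 lymphoid markers 17 to 91. The sum of 3 erythroid markers was 22 to 87, against 6089 to 9744 for 9 myeloid markers. Some myeloid markers moved after 4-HT: in Δ(177-191) cells Myb was below all 0 h arrays on 9 of 9 treated arrays (median 184, against 762 at 0 h), while Ptprc, Il3ra, Csf2rb and Csf2rb2 were above on 9 of 9. In WT cells Spi1 (median 1048, against 773) and Mpo (157, against 17) were above on 9 of 9. Myb (2446, against 2134) was above on 8 of 9 in WT cells. There Csf2rb2 (1205, against 1626) and Il3ra (199, against 215) were below on 8 of 9, and Csf2rb (1889, against 2129) on 6 of 9. In vector cells Il3ra was below on 9 of 9 (166, against 200) and Ptprc on 8 of 9 (1530, against 1752). In K298E cells Csf2rb (2032, against 1771) was above on 8 of 9. Ptprc (1816, against 1579) and Myb (2569, against 2347) were above on 7 of 9 there. Medians at 0 h also differed between lines, such as Myb at 762 in Δ(177-191) and 1891 in vector cells. The part of these movements and differences in the members' changes was not tested. The Esr1 probe set, which reads the receptor part of the fusion, had signals at 0 h of 2607, 2589 and 2228 in WT, 1316, 1403 and 1599 in K298E and 3672, 3329 and 2787 in Δ(177-191) cells, against 19, 17 and 19 in vector cells. After 4-HT it was below all 0 h arrays on 9 of 9 treated arrays in K298E and on 4 of 9 in WT cells. In Δ(177-191) cells it was above them on 4 of 9 and below on 0. The part of the Esr1 signal in the members' changes was not tested.

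Promoter sequences are shown because the family's best known sequence feature is the E-box. They were chosen for holding it, among the members described in detail below, with Ddx21 shown as a member without it. Those members were picked by high signal or by large changes, so the choice was not independent of the changes. Among them, Ddx21 had the largest K298E change relative to vector of those whose window lacks an E-box. The sequences shown do not represent the members' windows, most of which lack an E-box. Imp4, Ltv1, Nle1, Nop2, Pes1, Tsr1 and Wdr43 also hold an E-box and are not shown. RefSeq windows of 300 bases (assembly GRCm38.p6, 250 before and 50 after the annotated start) were found for 39 of the 44 listed genes, Mrto4 among them. The letters CACGTG, which read the same on both strands, stood in the windows of 11 of these 39 (28.2%), against 11.3% of all tested genes with a window, 16.4% of the other ribosome biogenesis genes and 10.5% of the cytosolic ribosomal protein genes. The 11 were Grwd1, Imp4, Ltv1, Mybbp1a, Nle1, Nop2, Pes1, Pno1, Tsr1, Utp20 and Wdr43, and 9 of their 11 E-boxes lay within the 50 bases after the start. The letters TTGCNNAA, the core of a C/EBP palindrome with 2 of its bases left free, were searched on both strands with overlaps allowed. They stood in 3 of the 39 (7.7%), against 10.1% of tested genes. A match is a description of the letters and not of a bound site, and the absence of one says only that these letters are not in the window. The 30 bases around the E-box, in capitals, of 4 members and the 250 bases before the start of Ddx21, whose window holds no CACGTG, read as follows 5′ to 3′ on the gene's strand. They lie at chr7:45830740-45830769 (Grwd1, minus strand), chr10:88826765-88826794 (Utp20, minus), chr11:17211540-17211569 (Pno1, minus), chr11:72441347-72441376 (Mybbp1a, plus) and chr10:62602299-62602548 (Ddx21, minus).
Grwd1: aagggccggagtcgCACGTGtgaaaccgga
Utp20: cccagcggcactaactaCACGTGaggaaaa
Pno1: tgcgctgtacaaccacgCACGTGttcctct
Mybbp1a: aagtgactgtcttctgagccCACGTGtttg
Ddx21: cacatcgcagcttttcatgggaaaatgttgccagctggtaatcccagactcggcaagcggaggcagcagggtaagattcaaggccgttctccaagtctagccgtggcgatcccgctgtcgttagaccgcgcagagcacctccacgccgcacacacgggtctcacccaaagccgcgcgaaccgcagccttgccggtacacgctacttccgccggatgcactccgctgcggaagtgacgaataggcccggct
The E-box begins at base 35 after the start in Grwd1, at base 38 in Utp20 and Pno1 and at base 41 in Mybbp1a.

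After 4-HT the ribosome biogenesis genes rose together in WT and in vector cells, rose at 6 h but not at 12 h in K298E cells, and more of them fell than rose in Δ(177-191) cells. Over 6, 9 and 12 h taken as a mean, 40 of the 43 members rose in WT cells against their own 0 h and 0 fell, with a median log2 change of 0.62. In K298E cells 9 rose and 0 fell (median 0.15), or 3 to 5 without replicate number 2 or 3 or without K298E 0 h replicate 2 or 3. In Δ(177-191) cells 4 rose and 21 fell (median -0.24), and in vector cells 40 rose and 0 fell (median 0.49). Of all 12800 genes, 16.6% were called higher and 19.6% lower in WT cells, 2.83% and 3.53% in K298E cells, 14.4% and 21.2% in Δ(177-191) cells, and 10.4% and 13.4% in vector cells. The medians over all genes lay between -0.07 and -0.01. With each array centred on its median instead, all genes split into 3005 higher and 1692 lower in WT (2125 and 2503 without centring), 446 and 299 in K298E (362 and 452), 2525 and 1911 in Δ(177-191) (1844 and 2711) and 2055 and 1037 in vector cells (1335 and 1720). The members called were then 41, 9, 22 and 41 in this order of lines, with 4 of the 22 higher and 18 lower. A call here means an adjusted p under 0.05 over all probe sets tested in limma, and a change is the difference of log2(signal + 3).

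In each of the 4 lines the median change was higher at 6 h than at 9 or 12 h. At 6 h, 40 members had risen in WT cells (median 0.88, 13.5% of all genes called higher), 30 in K298E cells (0.43, 5.44%), 10 in Δ(177-191) cells (-0.01, 12.2%) and 39 in vector cells (0.63, 8.38%). At 9 h the counts of risen members were 36 in WT (14.9% of all genes), 2 in K298E (2.39%), 2 in Δ(177-191) (13.6%) and 30 in vector cells (9.07%). At 12 h they were 35 (14.7%), 0 (1.02%), 1 (12.2%) and 31 (7.68%) in the same order of lines. In Δ(177-191) cells 7, 28 and 25 members had fallen at 6, 9 and 12 h, where 18.3%, 18.8% and 18.2% of all genes had. Between 6 and 12 h members fell in every line: 21 in WT (6.5% of all genes called lower), 36 in K298E (4.93%), 26 in Δ(177-191) (8.63%) and 16 in vector cells (4.06%), with medians of -0.30, -0.51, -0.33 and -0.18. In that interval 0 members rose in any line, where 8.74%, 5.71%, 9.71% and 5.02% of all genes did in the same order of lines.

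**Figure D1:**
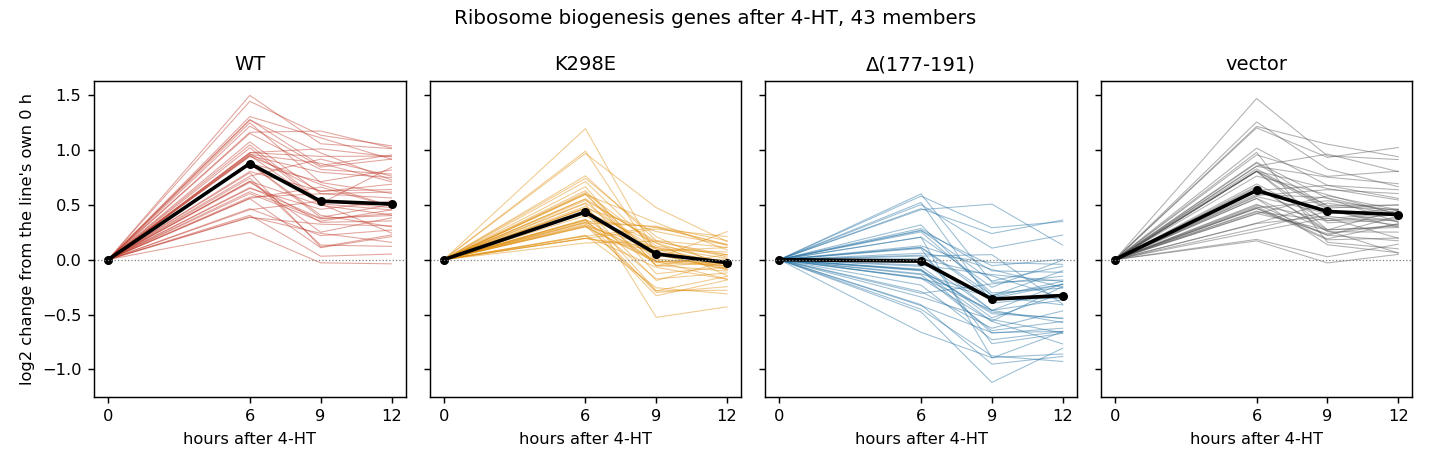
Each thin line is 1 of the 43 members, with hours after 4-HT on the horizontal axis and the log2 change from the line's own 0 h on the vertical axis; the thick line is the median. Medians peak at 6 h at 0.88 in WT, 0.43 in K298E and 0.63 in vector cells, and Δ(177-191) cells stay near 0 at 6 h and reach -0.36 at 9 h.

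Array by array, all 9 arrays after 4-HT lay above all 3 arrays at 0 h for 35 of the 43 members in WT, 2 in K298E, 1 in Δ(177-191) and 32 in vector cells, as they did for 10.6%, 2.25%, 8.46% and 7.93% of all genes. All 9 lay below all 3 for 8 members in Δ(177-191) cells and for 0 in the other lines, against 13.3% of all genes in Δ(177-191), 13.5% in WT, 3.3% in K298E and 10.7% in vector cells. The members whose mean change was not called in WT cells were Nop14 (0.06, adjusted p = 0.688), Nob1 (0.16, adjusted p = 0.421) and Npm1 (0.26, adjusted p = 0.153). The same 3 genes were those not called in vector cells, at 0.06, 0.12 and 0.35. The 4 members that rose in Δ(177-191) cells were Pno1, Npm1, Rrs1 and Pes1.

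Because vector cells also responded, each line's change was set against theirs. The 3 comparisons share the vector arrays. The WT change was higher than the vector change for 5 members and lower for 0 (median 0.14, 5.06% of all genes called higher and 4.48% lower). The K298E change was lower for 19 and higher for 0 (median -0.35, 2.23% of all genes called lower and 3.84% higher), and the Δ(177-191) change was lower for 39 and higher for 0 (median -0.76, 14.4% called lower and 11.2% higher). The 5 members with the higher WT change were Grwd1, Ebna1bp2, Noc4l, Nip7 and Bop1, and 4 of them serve the 60S subunit. Leaving out the arrays with any 1 replicate number left 1 of these 5, and without vector 0 h replicate 1, vector 0 h replicate 3 or WT 0 h replicate 1 it was 2. Without a replicate number the estimates were 0.22 to 0.27 for Bop1 and 0.30 to 0.55 for Grwd1, with all arrays 0.25 and 0.44. Other probe sets gave -0.01 for Grwd1 (adjusted p = 0.984) and -0.05 for Noc4l (adjusted p = 0.925). The K298E count was 6 without replicate 2, 8 without replicate 3 and 11 without vector 0 h replicate 2 alone, against 35 to 39 under the same omissions for Δ(177-191). With median centring all genes split into 311 higher and 386 lower in K298E relative to vector, where the split was 492 and 285, and 24 members were lower.

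By time, the WT change was called higher than the vector change for 0 members at 6 h and at 9 h and for 1 at 12 h (12, 7 and 12 at an unadjusted p under 0.05 in limma), where 3.27%, 3.25% and 3.81% of all genes were called higher. The K298E change was lower than the vector change for 0 members at 6 h (median -0.21, 12 at an unadjusted p under 0.05 in limma), 18 at 9 h (-0.38) and 22 at 12 h (-0.45), where 0.117%, 1.98% and 2.25% of all genes were called lower. The Δ(177-191) change was already lower for 35 members at 6 h (-0.63), and for 39 and 38 at 9 and 12 h (-0.84 and -0.79), against 10.1%, 12.7% and 12.4% of all genes. The drift of the relative change from 6 to 12 h was itself called for 1 member in K298E cells, Bop1 (0.188% of all genes called lower, median -0.25), and for 5 in Δ(177-191) cells, Nop10, Utp20, Dkc1, Ebna1bp2 and Wdr12 (3.06%, median -0.17). The absence of K298E calls at 6 h and their presence later therefore does not by itself show that the effect grew, except for Bop1. Counts at single times and for 12 h minus 6 h were not rerun with arrays left out or under other settings.

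**Figure D2:**
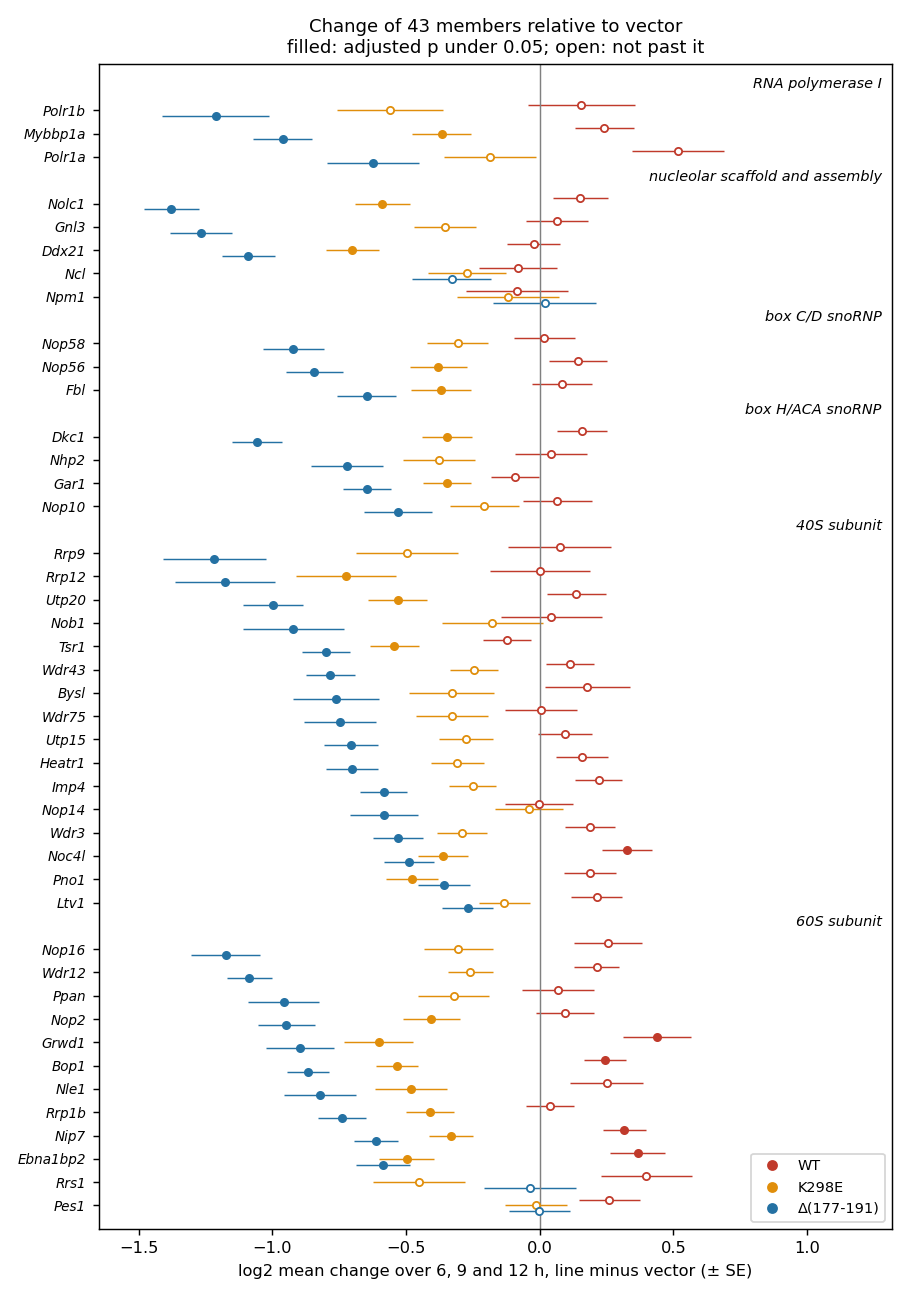
For each of the 43 members, grouped by role, points give the mean log2 change over 6, 9 and 12 h in WT (red), K298E (orange) and Δ(177-191) (blue) cells minus that in vector cells, with bars of 1 SE; filled points passed the threshold. Of the 43, 39 blue, 19 orange and 5 red points are filled, the blue and orange ones all below 0 and the red ones above it.

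WT and the mutants were also compared directly. The WT change exceeded the K298E change for 35 members and fell below it for 0 (median difference 0.48), where 8.44% of all genes were called higher and 9.08% lower (1080 and 1162 genes, and 1474 and 780 with median centring). The 8 not called were Npm1, Nop14, Ncl, Nob1, Nop10, Pes1, Nop58 and Wdr75. Without replicate 3 the count was 22. The WT change exceeded the Δ(177-191) change for 39 members and fell below it for 0 (median 0.94, 14.3% of all genes called higher and 11.1% lower), and the exceptions were Npm1, Ncl, Pes1 and Rrs1.

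The RNA polymerase I group has 3 members. Polr1a and Polr1b encode the largest and second-largest subunits of RNA polymerase I, and Mybbp1a encodes a nucleolar protein that binds Myb and acts in ribosomal DNA transcription and precursor processing. All 3 rose in WT and vector cells and all 3 had a lower change in Δ(177-191) than in vector cells, while 1 of the 3, Mybbp1a, had a lower change in K298E than in vector cells. Mybbp1a had signals of 954 to 1287 (median 1135) on the 9 arrays after 4-HT, against 524, 720 and 685 at 0 h, in WT cells. In K298E cells they were 760 to 1278 (median 941), against 807, 864 and 852 at 0 h. Those of Δ(177-191) cells were 521 to 874 (median 657), against 878, 887 and 856, and those of vector cells 825 to 1196 (median 1032), against 612, 715 and 717. Treated and 0 h arrays did not overlap in WT and vector cells, overlapped in K298E cells, and in Δ(177-191) cells 8 of 9 treated arrays were lower than all at 0 h. The mean log2 change of Mybbp1a was 0.83 ± 0.08 (SE, adjusted p = 9.3e-12) in WT and 0.59 ± 0.08 (adjusted p = 1.34e-07) in vector cells. Relative to vector it was -0.37 ± 0.11 in K298E cells (adjusted p = 0.0431, past the threshold in 16 of 36 settings) and -0.96 ± 0.11 in Δ(177-191) cells (adjusted p = 3.44e-09).

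Polr1b had signals of 69 to 137 (median 102) after 4-HT, against 159, 183 and 208 at 0 h, in Δ(177-191) cells, so that all 9 treated arrays were below all 3 at 0 h. In WT cells they were 166 to 333 (median 209), against 162, 149 and 141. The Δ(177-191) change was -0.80 ± 0.14 (adjusted p = 1.24e-05), and relative to vector it was -1.21 ± 0.20 (adjusted p = 6.5e-06). In vector cells the 9 treated arrays of Polr1b had a median of 170 and a lowest signal of 134, against 138, 146 and 139 at 0 h, which overlapped. In K298E cells Polr1b ranged from 99 to 365 after 4-HT, against 210, 199 and 191 at 0 h, and its relative change of -0.56 did not pass the threshold (adjusted p = 0.112). Polr1a had signals of 110 to 169 (median 125) after 4-HT, against 69, 88 and 60 at 0 h, in WT cells, and 93 to 129 (median 96), against 141, 120 and 126, in Δ(177-191) cells. Its WT change was 0.85 ± 0.12 (adjusted p = 2.19e-07). The change of Polr1a in vector cells, 0.33 ± 0.12 (adjusted p = 0.0477), was past the threshold in 9 of 24 settings.

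Among the 5 nucleolar scaffold and assembly proteins, Nolc1, Gnl3 and Ddx21 moved with the rest while Npm1 and Ncl did not separate the lines. Nolc1 encodes a chaperone of snoRNPs. Its signals after 4-HT were 775 to 1177 (median 993) in WT cells, against 508, 465 and 506 at 0 h, and 779 to 1043 (median 864) in vector cells, against 470, 539 and 467. In K298E cells they were 637 to 1028 (median 736), against 652, 643 and 646, and in Δ(177-191) cells 368 to 630 (median 441), against 766, 615 and 661. All treated arrays of WT and vector cells were above those at 0 h, and 8 of the 9 of Δ(177-191) cells were below. Relative to vector the change was -0.59 ± 0.10 in K298E (adjusted p = 0.000163) and -1.38 ± 0.10 in Δ(177-191) cells (adjusted p = 4.41e-14), and WT minus Δ(177-191) was 1.53 ± 0.10 (adjusted p = 3.69e-15).

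Gnl3, nucleostemin, is a GTPase of proliferating stem and tumor cells. Gnl3 had signals of 372 to 624 (median 404) after 4-HT, against 788, 715 and 776 at 0 h, in Δ(177-191) cells, with no overlap, and 578 to 947 (median 727), against 520, 517 and 524, in vector cells, also with no overlap. Gnl3 was at 581 to 1011 (median 791) in WT cells, against 502, 546 and 585, and at 444 to 806 (median 618) in K298E cells, against 610, 561 and 531, with overlap in both. Its Δ(177-191) change was -0.75 ± 0.08 (adjusted p = 5.19e-10), and -1.27 ± 0.12 relative to vector (adjusted p = 1.04e-11). Ddx21 encodes an RNA helicase of the nucleolus. Ddx21 signals after 4-HT were 434 to 623 (median 493) in WT cells, against 279, 249 and 220 at 0 h, and 332 to 610 (median 387) in K298E cells, against 306, 313 and 370. They were 239 to 425 (median 300) in Δ(177-191) cells, against 325, 346 and 315, and 407 to 549 (median 470) in vector cells, against 217, 202 and 252. The change of Ddx21 relative to vector was -0.70 ± 0.10 (adjusted p = 3.71e-06) in K298E and -1.09 in Δ(177-191) cells, and the mean signal of the treated arrays was 0.99 times that at 0 h in Δ(177-191) cells, against 2.09 times in vector cells.

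Npm1 encodes nucleophosmin and Ncl nucleolin, both major nucleolar proteins. Npm1 had signals after 4-HT of 4246 to 6897 (median 4755) in WT cells, against 4225, 4036 and 4449 at 0 h, and of 4084 to 8518 (median 4989) in Δ(177-191) cells, against 4507, 3915 and 3830. In K298E cells they were 3839 to 5394 (median 4821), against 4171, 3725 and 4287, and in vector cells 4240 to 5197 (median 4511), against 3532, 3594 and 3771. The arrays overlapped in the 3 fusion lines and did not in vector cells. The Δ(177-191) change of Npm1, 0.36 ± 0.14 (adjusted p = 0.0369), was past the threshold in 12 of 24 settings and was 0.27 (adjusted p = 0.0809) without Δ(177-191) 9 h replicate 1, the array at 8518. Relative to vector it was 0.02 (adjusted p = 0.976). Ncl, at -0.33 relative to vector in Δ(177-191) cells, did not pass the threshold either (adjusted p = 0.119).

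**Figure D3:**
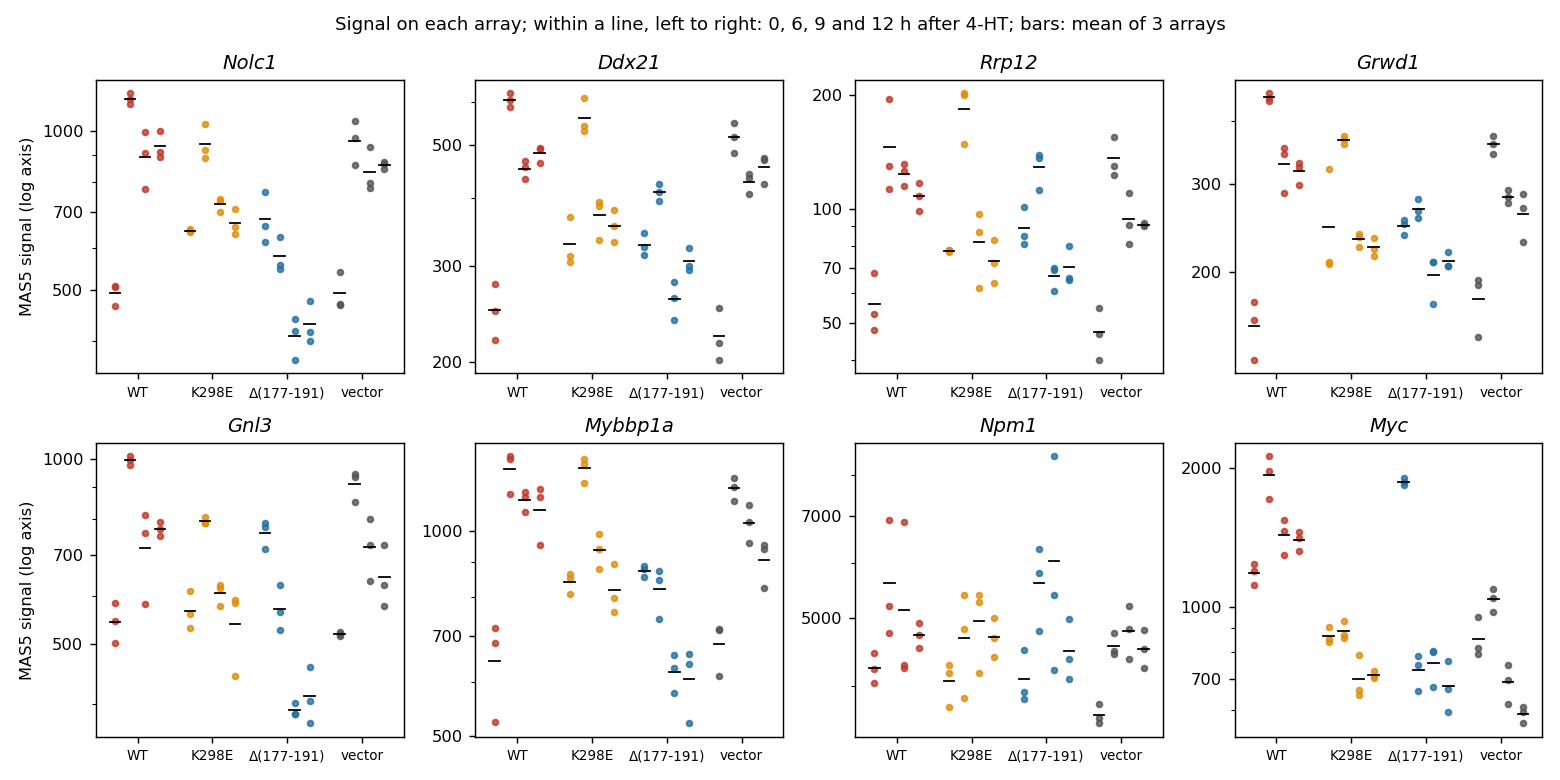
Signals (log axis) of 7 members and Myc on each of the 48 arrays; within each line the 4 columns are 0, 6, 9 and 12 h after 4-HT and bars are means of 3 arrays. In Δ(177-191) cells all 9 treated arrays of Gnl3 and 8 of 9 of Nolc1 lie below all 0 h arrays, in WT cells all 9 of Nolc1 and 8 of 9 of Gnl3 lie above them, as do all 9 of both in vector cells, Npm1 overlaps between lines, and Myc drops in Δ(177-191) cells.

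The snoRNP genes of both classes rose in WT and vector cells and did not keep pace in Δ(177-191) cells. Fbl, the methyltransferase of box C/D particles, and their core proteins Nop56 and Nop58 all rose in WT and vector cells, and all 3 had a lower change in Δ(177-191) than in vector cells, as 2 of 3 had in K298E cells. Fbl had signals of 2059 to 2672 (median 2315) after 4-HT, against 1562, 1602 and 1472 at 0 h, in WT cells, and 2128 to 2377 (median 2233), against 1600, 1553 and 1648, in vector cells. In K298E cells they were 1826 to 2577 (median 2182), against 1926, 1969 and 2092, and in Δ(177-191) cells 1056 to 1786 (median 1479), against 1646, 1595 and 1669. Treated arrays were clear of 0 h in WT and vector cells and overlapped it in both mutants. Relative to vector, Fbl was at -0.37 ± 0.11 in K298E (adjusted p = 0.045, past the threshold in 13 of 36 settings) and at -0.65 ± 0.11 in Δ(177-191) cells (adjusted p = 1.52e-05).

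Of the box H/ACA proteins, Dkc1 encodes dyskerin, the pseudouridine synthase, and Gar1, Nhp2 and Nop10 its partners. All 4 rose in WT and vector cells and had a lower change in Δ(177-191) than in vector cells, as 2 had in K298E cells. Dkc1 signals after 4-HT were 1689 to 2750 (median 1912) in WT cells, against 1113, 1170 and 1269 at 0 h, and 444 to 1146 (median 567) in Δ(177-191) cells, against 872, 933 and 955. In K298E cells Dkc1 ranged from 1331 to 2255 (median 1509), against 1467, 1332 and 1397, and in vector cells from 1611 to 2295 (median 1744), against 1249, 1183 and 1241. The 3 arrays at 6 h were above 0 h and the other 6 below it in Δ(177-191) cells. Its relative change there was -1.06 ± 0.09 (adjusted p = 3.03e-12). Nop10 had signals of 1853 to 3389 (median 2474) in Δ(177-191) cells, against 2544, 2637 and 2488 at 0 h, which overlapped. In WT cells Nop10 ranged from 3034 to 4248, against 2640, 2424 and 2390, in K298E cells from 3158 to 3857, against 3088, 2757 and 3063, and in vector cells from 2759 to 3566, against 2400, 2351 and 2438, with no overlap in these lines. Relative to vector Nop10 was at -0.53 ± 0.13 in Δ(177-191) cells (adjusted p = 0.00151).

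The 16 genes of the 40S subunit act in the large early processing complex that forms on the precursor (Heatr1, Utp15, Wdr43, Wdr75, Wdr3, Utp20, Nop14, Noc4l, Imp4, Rrp9) or in later maturation and export (Rrp12, Bysl, Ltv1, Pno1, Tsr1, Nob1). Of the 16, 14 rose in WT and 14 in vector cells, 8 fell in Δ(177-191) cells, and all 16 had a lower change in Δ(177-191) than in vector cells, as 5 had in K298E cells. Utp20 rose the most of all members in WT cells, by 1.21 ± 0.08 (adjusted p = 1.88e-16). Its signals after 4-HT were 261 to 385 (median 287) in WT cells, against 126, 114 and 158 at 0 h, and 241 to 330 (median 277) in vector cells, against 142, 125 and 122. In K298E cells Utp20 was at 177 to 375 (median 246), against 182, 162 and 187, and in Δ(177-191) cells at 136 to 303 (median 168), against 184, 192 and 181. WT and vector arrays did not overlap with 0 h, and those of both mutants did. The change of Utp20 in K298E cells was 0.97 ± 0.10 at 6 h (adjusted p = 6.29e-10) and 12 h lay below 6 h by 0.80, a called fall (adjusted p = 8.46e-08).

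Rrp12 encodes a factor of 40S maturation and export. Rrp12 signals after 4-HT were 99 to 195 (median 117) in WT cells, against 48, 53 and 68 at 0 h, and 81 to 155 (median 92) in vector cells, against 55, 40 and 47. They were 62 to 202 (median 87) in K298E cells, against 78, 77 and 78, and 61 to 139 (median 70) in Δ(177-191) cells, against 101, 81 and 85. Both mutants' treated arrays lay on either side of 0 h. In K298E cells the change was 1.19 ± 0.16 at 6 h (adjusted p = 7.21e-07), and 12 h minus 6 h was -1.29 ± 0.16 (adjusted p = 2.6e-07). Its K298E mean change relative to vector was -0.73 ± 0.19 (adjusted p = 0.0142), and -0.62 (adjusted p = 0.0895) without vector 0 h replicate 2, the lowest of the 3 arrays.

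Rrp9, which binds the U3 snoRNA of the early complex, had signals of 417 to 741 (median 518) after 4-HT, against 302, 216 and 271 at 0 h, in WT cells, and 169 to 385 (median 284), against 383, 285 and 347, in Δ(177-191) cells. In vector cells Rrp9 was at 269 to 527 (median 376), against 277, 147 and 223. WT arrays were clear of 0 h and those of the other lines were not, and the Δ(177-191) change relative to vector was -1.22 ± 0.19 (adjusted p = 3.01e-06). Noc4l, also of the early complex, was at 434 to 530 (median 465) after 4-HT in WT cells, against 259, 280 and 263 at 0 h, and at 402 to 509 (median 411) in vector cells, against 325, 275 and 316. The WT change of Noc4l exceeded that of vector by 0.33 ± 0.09 (adjusted p = 0.0215), a difference not past the threshold without WT 0 h replicate 1 (0.31, adjusted p = 0.0767).

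Pno1 and Nob1, which both act at the last cut of the small subunit's RNA, went opposite ways in Δ(177-191) cells. Pno1 had signals there of 573 to 807 (median 678) after 4-HT, against 527, 492 and 542 at 0 h, and Nob1, the endonuclease, of 128 to 265 (median 203), against 338, 314 and 334. Neither overlapped. Pno1 rose by 0.41 ± 0.07 (adjusted p = 7.19e-06) and Nob1 fell by 0.81 ± 0.13 (adjusted p = 4.17e-06). In WT cells Pno1 was at 753 to 835 (median 782), against 377, 409 and 429, with a change of 0.95 ± 0.07 (adjusted p = 5.28e-15), and in vector cells at 633 to 782 (median 689), against 391, 422 and 415. Relative to vector its change was -0.48 ± 0.10 in K298E (adjusted p = 0.00133) and -0.36 ± 0.10 in Δ(177-191) cells (adjusted p = 0.00551). Nob1 overlapped with 0 h in WT cells, at 290 to 460 (median 326), against 331, 277 and 316.

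The 12 genes of the 60S subunit all rose in WT and in vector cells. In Δ(177-191) cells 5 of them fell and 2 rose, 10 had a lower change than in vector cells, as 7 had in K298E cells. Bop1, Pes1 and Wdr12 encode the PeBoW complex, which processes the precursor of the large subunit RNAs, and they parted in Δ(177-191) cells. Wdr12 had signals of 205 to 296 (median 217) after 4-HT, against 421, 382 and 395 at 0 h, with all 9 arrays lower, and a change of -0.75 ± 0.06 (adjusted p = 4.71e-14). Bop1 had signals of 348 to 540 (median 429), against 427, 457 and 433, which overlapped. Pes1 averaged 676, 513 and 557 at 6, 9 and 12 h, with 478 at 0 h, and rose by 0.28 ± 0.08 (adjusted p = 0.00715). Wdr12 was at 454 to 556 (median 493) in WT cells, against 350, 294 and 375, at 358 to 513 (median 392) in K298E cells, against 381, 393 and 402, and at 381 to 514 (median 447) in vector cells, against 351, 348 and 373. Of these lines WT and vector had no overlap. Relative to vector the changes were -1.09 ± 0.08 for Wdr12 (adjusted p = 7.55e-14), -0.87 for Bop1 and 0.00 for Pes1 (adjusted p = 0.998).

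In WT cells Bop1 reached 770 to 908 (median 808) after 4-HT, against 400, 368 and 373 at 0 h, a change of 1.12 ± 0.06 (adjusted p = 2.78e-20). In K298E cells it was at 549 to 846 (median 681), against 551, 527 and 503, and in vector cells at 664 to 777 (median 710), against 398, 374 and 402. Of these lines, only K298E had arrays that overlapped with 0 h. Bop1 changed by -0.53 ± 0.08 (adjusted p = 7.05e-06) in K298E and by 0.25 ± 0.08 (adjusted p = 0.0443) in WT cells relative to vector. The other Bop1 probe set, with a mean signal of 10.5, does not carry these calls, since the mean of both gave -0.09 (adjusted p = 0.953) in K298E cells, and the WT excess was past the threshold in 13 of 36 settings.

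Grwd1, a chaperone of ribosomal protein L3 in human cells, and Ebna1bp2, a factor of early 60S particles, had the 2 largest differences between WT and K298E cells. Grwd1 signals after 4-HT were 288 to 454 (median 343) in WT cells, against 134, 161 and 175 at 0 h, and 216 to 373 (median 235) in K298E cells, against 210, 208 and 321. They were 173 to 280 (median 210) in Δ(177-191) cells, against 254, 250 and 237, and 230 to 374 (median 286) in vector cells, against 193, 149 and 189. WT and vector arrays were clear of 0 h and those of the mutants were not. WT minus K298E was 1.04 ± 0.13 for Grwd1 (adjusted p = 4.65e-08) and 0.86 ± 0.10 for Ebna1bp2 (adjusted p = 1.98e-08), and with the mean of all probe sets 0.52 for Ebna1bp2 (adjusted p = 0.0533). The WT change exceeded that of vector by 0.44 ± 0.13 (adjusted p = 0.0237) for Grwd1, and by 0.33 (adjusted p = 0.174) without WT 0 h replicate 1, the lowest array.

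Ebna1bp2 had signals of 738 to 895 (median 831) after 4-HT, against 412, 387 and 469 at 0 h, in WT cells, and 486 to 776 (median 600), against 552, 530 and 578, in K298E cells. In Δ(177-191) cells they were 448 to 655 (median 506), against 518, 498 and 532, and in vector cells 590 to 753 (median 684), against 410, 480 and 448. Again WT and vector arrays did not overlap with 0 h and the mutants' did. With the mean of all probe sets, the WT change of Ebna1bp2 exceeded that of vector by 0.07 (adjusted p = 0.913). Rrs1, which helps to bring the 5S particle into the large subunit, was at 631 to 1139 (median 849) after 4-HT in WT cells, against 478, 493 and 510, and at 344 to 837 (median 554) in K298E cells, against 555, 546 and 582. WT minus K298E was 0.85 ± 0.17 for Rrs1 (adjusted p = 0.00031). Rrs1 in Δ(177-191) cells was at 501 to 923 (median 797), against 602, 527 and 651, a called rise of 0.36 ± 0.12 (adjusted p = 0.0215) with overlapping arrays, and relative to vector its change there was -0.04 (adjusted p = 0.935).

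Nop16 and Ppan, also of the 60S subunit, fell in Δ(177-191) cells. Nop16 was at 296 to 411 (median 343) after 4-HT, against 521, 526 and 502 at 0 h, with no overlap, and at 555 to 1104 (median 615), against 367, 365 and 391, in WT cells. WT minus Δ(177-191) was 1.43 ± 0.13 for Nop16 (adjusted p = 7.41e-12). Nop16 was also clear of 0 h in vector cells, at 438 to 693 (median 495), against 346, 361 and 361, and overlapped in K298E cells, at 379 to 774 (median 455), against 409, 373 and 460. Ppan was at 118 to 231 (median 162) in Δ(177-191) cells, against 229, 225 and 228, with 8 of 9 arrays lower, and in vector cells at 301 to 585 (median 382), against 311, 288 and 309.

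The lines already differed before 4-HT. At 0 h, WT minus vector was called for 0 members (5 at an unadjusted p under 0.05 in limma, median 0.01), where 2.91% of all genes were called higher and 2.81% lower. K298E cells were higher than vector cells for 12 members and lower for 0 (median 0.22, 3.02% of all genes called higher and 3.45% lower, 386 and 441 genes, which were 534 and 288 with median centring), and Δ(177-191) cells higher for 19 and lower for 2 (median 0.21, 13.3% higher and 15.3% lower). The 12 of K298E included Rrp12 at 0.69 ± 0.16 (adjusted p = 0.00575), Ddx21 at 0.55 ± 0.09 (adjusted p = 2.16e-05) and Grwd1 at 0.45 ± 0.11 (adjusted p = 0.00865). Grwd1 at 0 h read 210, 208 and 321 in K298E cells, against 193, 149 and 189 in vector cells, and without the K298E array at 321 its difference was 0.25 (adjusted p = 0.248). The count of 12 was 7 without that array, 5 without vector 0 h replicate 2, and 4 or 3 without all arrays of replicate number 2 or 3. The highest differences of Δ(177-191) cells were Rrp12 at 0.88 ± 0.16 (adjusted p = 3.74e-05), Polr1a at 0.75 ± 0.15 (adjusted p = 0.000106) and Rrp9 at 0.68 ± 0.17 (adjusted p = 0.00156). The 2 lower members were Dkc1 at -0.41 ± 0.08 (adjusted p = 7.92e-05) and Ppan at -0.41 ± 0.12 (adjusted p = 0.00662).

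A change relative to vector therefore starts from unequal levels in the mutants, and levels at 12 h were compared directly. These counts at 12 h were not rerun with arrays left out or under other settings. At 12 h WT cells were higher than vector cells for 6 members, all of the 60S subunit (Ebna1bp2, Rrp1b, Nip7, Nop16, Pes1 and Rrs1), and lower for 0 (median 0.15, 7.91% of all genes called higher and 8.64% lower). K298E cells were lower for 12 and higher for 0 (median -0.22, 3.84% called lower and 5.39% higher), including Ppan, Nolc1 and Ddx21. Δ(177-191) cells were lower for 34 (median -0.53, 25.4% called lower) and higher for 1, Pes1, at 0.38 (adjusted p = 0.00215, 17.7% called higher). Dkc1 was lowest there at -1.53 (adjusted p = 4.09e-20), followed by Ppan at -1.47 and Wdr12 at -1.09. In such bulk samples fewer cells of a kind and less RNA per cell cannot be told apart.

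**Figure D4:**
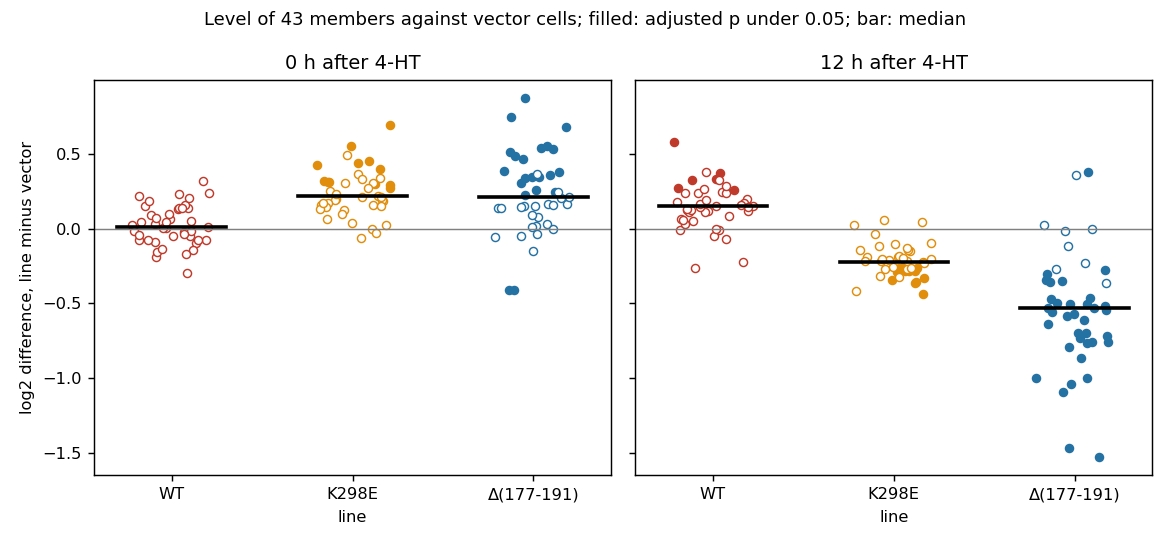
Each point is 1 of the 43 members, with the log2 difference from vector cells at 0 h (left) and at 12 h (right) for WT, K298E and Δ(177-191) cells; filled points passed the threshold and bars are medians. Medians at 0 h are 0.01, 0.22 and 0.21 in this order of lines, and at 12 h 0.15, -0.22 and -0.53.

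Myc, the regulator of this gene family, is not a member and is given beside it. Its signal after 4-HT was 1296 to 2120 (median 1462) in WT cells, against 1119, 1198 and 1243 at 0 h, and 644 to 934 (median 726) in K298E cells, against 908, 852 and 840. It was 592 to 805 (median 749) in Δ(177-191) cells, against 1863, 1841 and 1905, and 560 to 1093 (median 697) in vector cells, against 791, 814 and 953. Treated arrays were all above 0 h in WT cells, all below it in Δ(177-191) cells, and overlapped in the other lines. In vector cells 3 of the 9 treated arrays lay above all at 0 h and 6 below. In K298E cells 1 lay above and 6 below. Relative to vector, Myc changed by 0.58 ± 0.11 in WT (adjusted p = 0.000126), by -0.01 in K298E (adjusted p = 0.992) and by -1.20 ± 0.11 in Δ(177-191) cells (adjusted p = 6.35e-12). At 0 h Myc was higher than in vector cells by 0.48 ± 0.09 in WT (adjusted p = 0.000617) and by 1.14 ± 0.09 in Δ(177-191) cells (adjusted p = 1.97e-13). In vector cells at 12 h, 31 members were still higher than at 0 h, and Myc was called lower, by 0.53 on the log2 scale. This compares 1 time only, and the part of Myc in the members' changes was not tested.

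Split by the E-box, 7 of the 11 members with CACGTG in the promoter window and 9 of the 27 without it had a lower change in K298E than in vector cells (medians -0.40 and -0.33). In Δ(177-191) cells 10 of 11 and 26 of 27 did (medians -0.80 and -0.75). All 11 and 25 of 27 rose in WT cells. Of all genes, 2.23% were called lower relative to vector in K298E and 14.4% in Δ(177-191) cells, and 16.6% rose in WT cells. These counts carry no test, and the K298E total of 19 from which they are taken was 6 without replicate 2, 8 without replicate 3 and 11 without vector 0 h replicate 2.

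The rest of the pathway was read from a list of 134 other ribosome biogenesis genes, of which 130 were tested. In their own mean change 89 rose and 4 fell in WT cells (median 0.38), 7 rose and 0 fell in K298E cells (0.06), 10 rose and 52 fell in Δ(177-191) cells (-0.16), and 74 rose and 6 fell in vector cells (0.27). Relative to vector, 5 were higher and 2 lower in WT (median 0.08), 0 higher and 22 lower in K298E (-0.20) and 2 higher and 79 lower in Δ(177-191) cells (-0.47). Of all genes, the shares called higher and lower were 16.6% and 19.6%, 2.83% and 3.53%, 14.4% and 21.2%, and 10.4% and 13.4% against 0 h in the same order of lines, and relative to vector 5.06% and 4.48% in WT, 3.84% and 2.23% in K298E and 11.2% and 14.4% in Δ(177-191) cells. The 22 of K298E relative to vector were 9, 2 and 3 without replicate 1, 2 and 3, and 14 without vector 0 h replicate 3. The 7 of WT were 2 without replicate 2 or 3 and 4 without vector 0 h replicate 3. The 7 risen in K298E cells were 1 to 2 without any 1 replicate number, and 1, 4 and 2 without K298E 0 h replicate 1, 2 and 3. Tbl3, a subunit of the early 40S complex, rose by 1.30 ± 0.11 in WT cells (adjusted p = 1.08e-13) and more than in vector cells by 0.54 ± 0.15 (adjusted p = 0.0154). Among the falls relative to vector in Δ(177-191) cells were Rrp15, of the 60S pathway, at -1.11 ± 0.19 (adjusted p = 8.44e-06), and Polr1e, a subunit of RNA polymerase I, at -1.08 ± 0.13 (adjusted p = 6.06e-09). Exceptions in the other direction were Nop53, which fell by 0.58 ± 0.07 in WT cells (adjusted p = 1.56e-09), and Utp23, which rose by 1.12 in Δ(177-191) cells. Of 78 listed protein genes of the cytosolic ribosome itself, 43 were tested, at mean signals from 53.9 (Rps27) to 8149.9 (Rps3a1). These were mostly not called. Of the 43, 1 rose and 1 fell in WT cells, 0 changed in K298E, 3 fell in Δ(177-191) and 1 rose in vector cells. Relative to vector 0, 0 and 3 were called in WT, K298E and Δ(177-191) cells, the 3 lower. Whether very bright or dim probe sets hid changes was not tested. The 2 of WT were 0 or 1 without replicate 2 or 3 or without WT 0 h replicate 1 or 3, the 1 of vector was 0 without any 1 replicate number and without vector 0 h replicate 1 or 3 or 12 h replicate 1, and the 3 of Δ(177-191) against 0 h were 7 without its 9 h replicate 3. The counts of 0 stood against 3 at an unadjusted p under 0.05 in limma for K298E against its own 0 h, and 0 each for WT and K298E relative to vector.

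**Figure D5:**
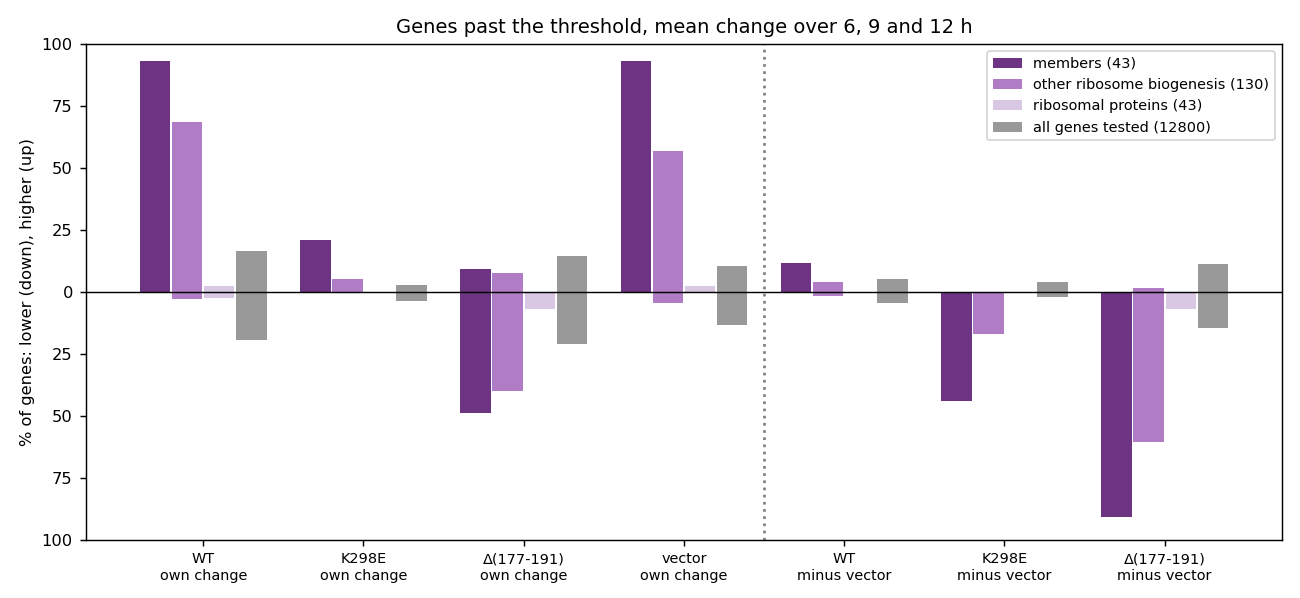
Bars give the percent of genes called higher (up) or lower (down) for the mean change over 6, 9 and 12 h, in each line against its own 0 h (left of the dotted line) and minus vector (right), for the 43 members, 130 other ribosome biogenesis genes, 43 ribosomal protein genes and all 12800 genes tested. The members' shares are highest upward in WT and vector cells (40 of 43 each) and downward in Δ(177-191) cells minus vector (39 of 43), while ribosomal protein genes stay near 0.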

How the data were processed

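The deposited table gives linear MAS5 intensity values, 1 column per array, per the submitters' processing notes; the MAS5 version is not given in the sources used here. All 48 arrays were used. Of the 45101 probe sets, 64 controls were left out, and the platform annotation gives 1 symbol for 34945, several for 932 and none for 9160 of the others. The values were used as log2(signal + 3); the 3 equals the 20th percentile over the table, and adding it understates changes of dim genes. Probe sets whose mean stayed at or under a signal of 14, the overall median, in each of the 16 groups were not tested, which left 27167 probe sets and 12800 genes. MAS5 signals of different probe sets depend on the probes, so levels of different genes are not strictly comparable. They were set side by side only in the marker sums, which hold unequal numbers of genes, and in choosing members by signal. The number of arrays limits the precision.

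A model of 16 group means was estimated with limma 3.58.1 (in R 4.3.3, with statmod 1.5.0), using a variance trend and 32 residual degrees of freedom, without a replicate block. Tests were two-sided, with adjustment by Benjamini and Hochberg over all probe sets tested, and ± after a log2 change is the standard error of this fit. The labels do not say whether replicate numbers pair arrays, so arrays were not paired. Deviations of arrays of different groups correlated at -0.15 to 0.147 (median 0.01) over 360 pairs with the same replicate number. Over 720 pairs with different numbers they correlated at -0.146 to 0.14 (median -0.006). These values do not settle whether the numbers pair arrays. Leaving out "a replicate number" drops the arrays of that number from all 16 groups. Data with 27167 probe sets were simulated for the K298E change relative to vector. Of 100 changes of 0.5 on the log2 scale 65 were recovered, and of 100 changes of 1 95 were, with 7 false calls among 167. The changes were placed in brighter probe sets only, so the recovery does not cover dim ones. Noise was drawn separately for each array, and all groups otherwise had the same mean, so effects shared between arrays were absent.

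Members, gene lists and tests were chosen with earlier results of these data known. Values on every array are given, by rule, for the member with the highest mean signal in each of 6 role groups and for up to 3 members with the largest rise and up to 3 with the largest fall past the threshold in each comparison; any other member may be named with its change. From the other lists up to 3 genes in each direction may be named, and always Myc. The direct comparisons at 12 h, 12 h minus 6 h and the split by E-box were added after values had been seen. Of 43 members, 28 had 40 other tested probe sets. Of these, 38 had the sign of the chosen one in the WT change, 37 in the vector change, and, relative to vector, 26 in the WT, 33 in the K298E and 39 in the Δ(177-191) change. Called in the same direction were 28 and 24 in the WT and vector changes. Relative to vector 0, 9 and 25 were, in WT, K298E and Δ(177-191) cells. The 1 opposite call in these comparisons was a probe set of Imp4 (-0.37 in WT and -0.39 in vector cells, where the chosen one had 0.58 and 0.36). Promoter windows came from RefSeq (GRCm38.p6) and were matched by symbol. The settings tried came to 24 to 36 a comparison where the text counts them. They included other pseudocounts, no filter, quantile normalization, median centring and array weights. The rest were the compared groups alone, the mean of all probe sets of a gene, a replicate block and leaving out arrays. All were run for mean changes and for levels at 0 h only.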

Additional observations from a re-analysis of the deposited data

Results flagged for a closer look

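The mean change over 6, 9 and 12 h differed between WT and K298E cells, by the test of the difference itself, for 35 of the 43 ribosome biogenesis genes, and for 22 without replicate 3. Of all genes, 8.44% were called higher in WT and 9.08% lower. The largest differences were 1.04 for Grwd1, 0.86 for Ebna1bp2 and 0.85 for Rrs1 on the log2 scale, all higher in WT. That of Grwd1 starts from uneven 0 h arrays, 210, 208 and 321 in K298E and 134, 161 and 175 in WT cells. That of Ebna1bp2 was smaller and not past the threshold with the mean of all probe sets of the gene. Between WT and Δ(177-191) cells the change differed for 39 members (14.3% of all genes higher and 11.1% lower), with the largest differences 1.53 for Nolc1, 1.43 for Nop16 and 1.37 for Polr1b, again higher in WT.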

How the results depend on the processing

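The 39 lower members in Δ(177-191) relative to vector, the 40 risen ones in WT and in vector cells, the 35 and 39 of WT against K298E and Δ(177-191), the 19 of K298E relative to vector, the 25 and 9 called in Δ(177-191) and K298E cells against their own 0 h and the 21 of Δ(177-191) called at 0 h stayed within 1.5 times their count under every scaling, filter, pseudocount and weighting run. The 5 members of WT relative to vector were 3 with quantile normalization and 1 with the mean of all probe sets of a gene. With array weights the 0 of WT at 0 h became 2, 1 higher and 1 lower, and the 12 of K298E at 0 h became 23. The cause was not tested. Over the omissions of arrays, counts ran from 1 to 6 (WT relative to vector), 6 to 20 (K298E relative to vector), 35 to 39 (Δ(177-191) relative to vector), 38 to 40, 3 to 10, 21 to 26 and 34 to 40 (WT, K298E, Δ(177-191) and vector cells against their own 0 h), 22 to 36 (WT minus K298E), 38 to 40 (WT minus Δ(177-191)), and 0 to 0, 3 to 10 and 15 to 19 (WT, K298E and Δ(177-191) minus vector at 0 h); fewer arrays also leave fewer degrees of freedom. With the mean of all probe sets, signs turned for Nip7 (K298E relative to vector, 0.012, and at 0 h, -0.038), Wdr75 (WT, -0.049), Nop16 (K298E, -0.056) and Bop1 (K298E at 0 h, -0.003); dim probe sets enter that mean by its construction. The other ribosome biogenesis genes of Δ(177-191) at 0 h ran from 19 to 33 called over the omissions, with 9 higher and 10 lower without replicate 3, and 7 ribosomal protein genes were called in WT minus Δ(177-191) without replicate 1 (3 higher, 4 lower) and 7 in Δ(177-191) cells without 9 h replicate 3 (4 higher, 3 lower). The replicate block was run although the labels do not say whether the numbers pair the arrays. Of the 48 arrays, 25 correlated best with their own number of the 3, where about 1 in 3 would if the numbers meant nothing. The arrays of a group are not independent in this count, and it was not tested. The block gave 36 for WT minus K298E, 40 for WT minus Δ(177-191) and 14 for K298E at 0 h. It left the other counts of members as they were. Median centring moved the median of all genes in WT cells to 0.07, where it was -0.07, and the splits given beside the counts; relative to vector, 6 members were then called for WT, 24 for K298E and 38 for Δ(177-191), and 38 for WT minus K298E. Signal over background limits what dim probe sets can show.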
